A study of Homo sapiens with 4 samples.

Results

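RNA levels were examined for 9 genes of the TGF-beta and activin pathway, TGFB1, TGFB2, TGFB3, TGFBR1, TGFBR2, INHBA, FST, SMAD3 and SMAD7, in human cells depleted of the DNA topoisomerase TOP2B. The genes were taken by symbol from a list and were 9 of the 60725 genes in the count table. The list was chosen with earlier results of these data known, so that the share of its genes called is a description only. All 9 were among the 15356 genes that passed the filter on low counts (at least 10 counts in at least 2 libraries) and were tested. The cells were hTERT-RPE1, a telomerase-immortalized retinal pigment epithelial line, carrying the SunTag system in every group. The control group received Silencer Select Negative Control No. 2 siRNA and the knockdown group received the Dharmacon ON-TARGETplus SMARTpool against TOP2B, so that the groups differed in supplier as well as in target. Both siRNAs were used at 10 nM, given again after 48 h, and the cells were harvested 72 h later, on day 5. Each group had 2 biological replicates.

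TGF-beta and activin are secreted dimers of one protein superfamily. TGF-beta is stored in the matrix as a latent complex and must be released before it binds the receptor kinases TGFBR2 and TGFBR1, which phosphorylate SMAD2 and SMAD3. Activin A, a dimer of the INHBA product, signals through its own receptors to the same SMADs and is trapped outside the cell by follistatin, the product of FST. In epithelial cells, including those of the retinal pigment epithelium, the pathway is known for induction of matrix genes and for slowing of cell division.

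The libraries held between 20310259 and 23887013 counts. Levels are given as CPM, the counts of a gene relative to the size of its library, scaled by the TMM method of edgeR. TOP2B stood at 155 and 144 CPM in the control replicates and at 15.3 and 13.3 CPM in the knockdown replicates, so that 9.58% of its RNA was left. Of 13 markers of differentiated retinal pigment epithelium, 3 reached a mean of 1 CPM (MITF, OTX2 and SERPINF1) and 5 had no count in any library (RPE65, RGR, TYR, TTR and CRX). The summed level of the 13 markers was 51.4 to 53.6 CPM in control and 61.0 to 61.6 CPM after knockdown. Of 5 epithelial markers, KRT8 and KRT18 reached a mean of 1 CPM and EPCAM had no count. Their summed level was 1457 to 1772 CPM in control and 1120.0 to 1403 CPM after knockdown. KRT8 had a log2 fold change of -0.35 (edgeR adjusted p = 0.255) and KRT18 of -0.39 (adjusted p = 0.15). Of 11 markers of blood, endothelial, neural and liver cells, 1 reached a mean of 1 CPM (SNAP25), and CD3E and HBB had no count in any library. The summed level of the 11 was 11.3 to 12.7 CPM in control and 8.38 to 11.1 CPM after knockdown. For each of these marker sums the ranges of the groups did not overlap. Among single genes, this was so for 54.3% of all genes tested. The part that any of these marker levels have in the results was not tested. In RNA from bulk culture, a change in the number of cells that express a gene and a change in the RNA per cell cannot be told apart.

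Follistatin RNA rose most among the 9 genes, 3.48-fold, and the RNAs of TGFB1, SMAD3 and INHBA rose by 1.52-fold to 1.69-fold. In the edgeR quasi-likelihood fit, with p-values adjusted by Benjamini-Hochberg over all genes tested, 4 of the 9 genes were called higher at an adjusted p below 0.05, against 6.66% of all genes tested. In the other direction 0 of the 9 were called lower, against 4.18% of all genes tested. At an unadjusted p below 0.05, edgeR placed 5 of the 9 higher and 1 lower (TGFBR2), a count not made over all genes. The Wald test of DESeq2 called 4 of the 9 higher and TGFBR2 lower. Over all genes it called 917 higher and 645 lower. The control and knockdown libraries did not overlap for 7 of the 9 genes, the exceptions being TGFB2 and TGFBR1, and this was so for 54.3% of all genes tested. The median log2 fold change of the 9 genes was 0.61, with 7 positive and 2 negative values, beside -0.0029 over all genes tested.

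**Figure D1:**
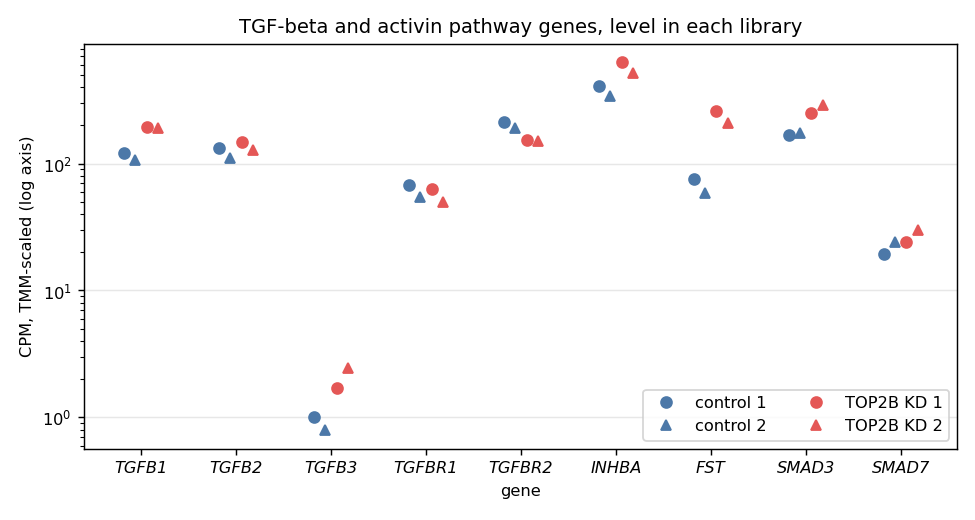
RNA level of the 9 genes in each library, in CPM on a log axis. Each point is a library. FST in the knockdown libraries (208.5 and 257.4 CPM) lies well above its control libraries (58.4 and 75.7 CPM), while the TGFB2 and TGFBR1 libraries of the groups overlap.

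FST and INHBA encode a secreted inhibitor and its main ligand subunit. FST (ENSG00000134363, chr5:53480626-53487134, plus strand, GRCh38) was at 75.7 and 58.4 CPM in the control replicates and at 257.4 and 208.5 CPM after TOP2B knockdown. Both knockdown libraries were higher than both control libraries. The means were 67.0 ± 12.2 and 233.0 ± 34.6 CPM (SD, n = 2 each), a log2 fold change of 1.80 with a 95% interval of 1.43 to 2.16 (edgeR adjusted p = 0.000498). On the linear scale the interval ran from 2.69-fold to 4.48-fold. The FST call was made in all 10 alternative fits.

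INHBA (ENSG00000122641, chr7:41667168-41705834, minus strand), the activin beta A subunit, was at 410.7 and 342.1 CPM in control and at 626.9 and 519.5 CPM after knockdown. The groups were again separate, though replicate 1 was the higher library in each. The log2 fold change was 0.61 (95% interval 0.25 to 0.96, edgeR adjusted p = 0.0395). The call rested on single libraries. It was lost without control replicate 2 (0.49, adjusted p = 0.276) and without knockdown replicate 1 (0.47, adjusted p = 0.283).

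Since FST rose more than INHBA, the balance of their RNAs was computed in each library from levels per kb of exon, the scale on which different genes can be set side by side. INHBA exceeded FST in control, with ratios of 1.80 and 1.95, and was below it after knockdown, with ratios of 0.809 and 0.828. The groups did not overlap, and the log2 ratio differed by -1.19. With 2 libraries per group the exact two-sided permutation test cannot go below p = 0.333, which is the value obtained. With the length of the canonical transcript alone, chosen as an alternative after seeing the data, the ratios were 2.06 and 2.23 in control and 0.926 and 0.947 after knockdown.

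**Figure D2:**
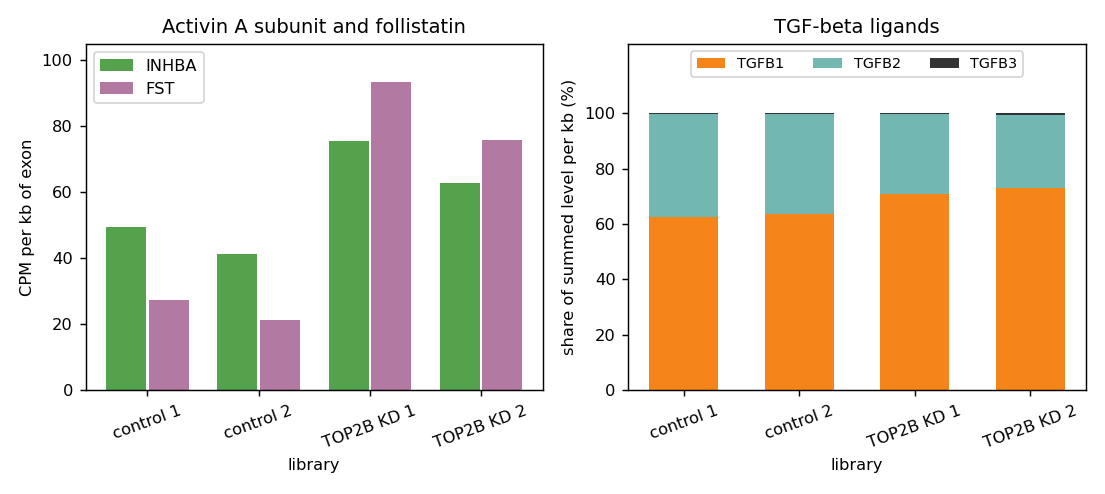
Balance between members in each library. The INHBA to FST ratio per kb of exon lay at 1.80 and 1.95 in control and at 0.809 and 0.828 after TOP2B knockdown, and the TGFB1 share of the summed TGF-beta ligand RNA lay at 62.7% and 63.8% in control and at 70.7% and 73.1% after knockdown.

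The promoter sequences of this pair, from RefSeq on GRCh38.p14, are shown because FST had the largest change of the 9 genes and INHBA is the subunit it inhibits. Each run gives the 250 bases before the annotated start, with matches to the searched motifs in capitals. In FST the capitals mark TGATTCA, a match to the AP-1 motif TGANTCA, and CCGCCC, the reverse complement of the GC box GGGCGG. In INHBA they mark the TATA box TATAAA. In the GENCODE v44 annotation the last 3 bases of the FST run lie in its first exon, and the INHBA run lies within the gene but overlaps no exon.
FST (chr5:53480379-53480628, plus strand): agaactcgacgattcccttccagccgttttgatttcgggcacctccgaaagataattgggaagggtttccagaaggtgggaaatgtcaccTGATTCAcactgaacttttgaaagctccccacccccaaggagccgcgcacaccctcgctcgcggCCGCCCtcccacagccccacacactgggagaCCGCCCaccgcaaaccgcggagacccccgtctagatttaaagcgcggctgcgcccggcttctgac
INHBA (chr7:41703091-41703340, minus strand): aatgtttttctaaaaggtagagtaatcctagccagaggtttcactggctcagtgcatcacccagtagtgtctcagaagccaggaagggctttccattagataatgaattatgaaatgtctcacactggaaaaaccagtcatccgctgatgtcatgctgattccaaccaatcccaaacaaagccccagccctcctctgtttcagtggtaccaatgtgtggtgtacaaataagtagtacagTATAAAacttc

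The same letters were searched on both strands in windows of 300 bases, 250 before to 50 after the start, for all 9 genes and for 27305 RefSeq promoters. The AP-1 motif was found in 1 of the 9 promoters, that of FST, 160 bases before the start, and in 7.76% of all promoters. TATAAA was found in 2, TGFB2 and INHBA, and in 12% of all promoters. The GC box was found in 3, TGFB1, FST and SMAD3, beside 44.6% of all promoters. The SMAD box CAGACA was found in 2, TGFB2 and INHBA, beside 16.8%, and the longer SMAD palindrome GTCTAGAC in 0, beside 0.201%. The E box CACGTG lay in 3 (TGFB2, TGFB3 and SMAD3), beside 7.43%, and the TEAD motif GGAATG in 1 (TGFB2), beside 14%. In TGFB2 the SMAD box and the E box share bases. These matches are descriptions of letters, and binding was not measured. Besides the runs above, the sites of TGFB2 are shown because it alone of the 9 holds both the TATA box and the SMAD box before its start. The match is in capitals.
TGFB2, TATA box (chr1:218345295-218345324, plus strand): tcagagagaactTATAAAtctcccctcccc
TGFB2, SMAD box (chr1:218345271-218345300, plus strand): ctttgttgaaggCAGACAcgtggttcagag
The promoters also differed in base composition, from 42.3% G and C in TGFBR2 and 43.3% in INHBA to 77.3% in TGFB1, 78.7% in TGFBR1 and 80.3% in SMAD3. The 4 genes that rose were spread over this range, with FST at 63.7%. These windows follow the RefSeq starts, which are not always those of GENCODE v44. By GENCODE the TGFBR2 window ends before its gene begins, and those of TGFBR1, SMAD3 and INHBA lie inside their genes.

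Of the TGF-beta ligands, TGFB1 rose, TGFB2 was not called and TGFB3 was scarce. TGFB1 (ENSG00000105329, chr19:41301587-41353922, minus strand), the ligand best known in fibrosis and immune control, was at 121.1 and 106.0 CPM in control and at 193.8 and 191.1 CPM after knockdown. The knockdown libraries lay close together and above both controls. Its log2 fold change was 0.76 (95% interval 0.48 to 1.04, edgeR adjusted p = 0.00562), a 1.69-fold rise, and it was called in all 10 alternative fits.

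TGFB2 (ENSG00000092969, chr1:218345336-218444619, plus strand), the main isoform of the eye, was at 132.3 and 110.7 CPM in control and at 146.9 and 127.5 CPM after knockdown. The groups overlapped, with knockdown replicate 2 below control replicate 1. At 0.18, the log2 fold change had an interval of -0.13 to 0.48, which held both no change and a rise (edgeR adjusted p = 0.465). In TGFB2, 34.2% of exon bases are shared with the antisense gene TGFB2-AS1 or the overlapping TGFB2-OT1, and since it is not given whether strand was used in counting, their reads cannot be told apart from those of TGFB2. For the other 8 genes the shared part was at most 6.59% of exon bases.

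TGFB3 (ENSG00000119699, chr14:75958097-75983011, minus strand), a ligand of palate and wound repair, had 24 and 18 counts in the control libraries and 36 and 49 counts in the knockdown libraries. These are levels of 1.00 and 0.790 CPM against 1.70 and 2.43 CPM, separate but low. The log2 fold change of 1.19 had a wide interval of 0.44 to 1.95, and the edgeR adjusted p of 0.0501 missed the threshold. Without control replicate 1 the adjusted p was 0.0405 (log2 fold change 1.37), and without knockdown replicate 1 it was 0.0153 (1.44). Without control replicate 2 it was 0.16 (1.04), and without knockdown replicate 2 it was 0.226 (0.92). DESeq2 gave TGFB3 an adjusted p of 0.152.

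Per kb of exon, TGFB1 made up 62.7% and 63.8% of the summed RNA of the 3 ligands in control and 70.7% and 73.1% after knockdown. TGFB2 made up 37.0% and 35.9% in control and 28.9% and 26.3% after knockdown, so that the groups did not overlap for either ligand. With TGFB3 scarce, these shares mirror each other and are not separate results. The lower TGFB2 share was not a fall of TGFB2 RNA, which had a log2 fold change of 0.18. The TGFB3 share stayed below 1% in each library, at 0.324% and 0.297% in control and at 0.387% and 0.581% after knockdown. The TGFB1 share was 8.66 percentage points higher after knockdown, with an exact two-sided permutation p of 0.333, the smallest the design allows.

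The receptor RNAs did not pass the test. TGFBR2 (ENSG00000163513, chr3:30606601-30694142, plus strand), the kinase that binds the ligand first, was at 211.5 and 192.1 CPM in control and at 152.9 and 151.4 CPM after knockdown. Both knockdown libraries were below both controls. Its log2 fold change was -0.41 (95% interval -0.69 to -0.13), the edgeR adjusted p was 0.0662 and the unadjusted p was 0.00847. DESeq2 gave -0.42 with an adjusted p of 0.0228, so the call depended on the tool.

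TGFBR1 (ENSG00000106799, chr9:99104038-99154192, plus strand), the kinase that TGFBR2 activates and that phosphorylates the SMADs, was at 68.1 and 54.1 CPM in control and at 62.9 and 49.7 CPM after knockdown. The groups overlapped, and within each of them replicate 1 was the higher library. The log2 fold change was -0.12 (95% interval -0.46 to 0.23, edgeR adjusted p = 0.687), and it took the opposite sign without control replicate 1 (0.06) and without knockdown replicate 2 (0.05).

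Among the SMADs, the signal transducer SMAD3 rose and the inhibitory SMAD7 was not called. SMAD3 (ENSG00000166949, chr15:67063763-67195173, plus strand) was at 169.0 and 174.4 CPM in control and at 251.7 and 288.9 CPM after knockdown. The controls differed little, and both knockdown libraries were above them. The log2 fold change was 0.65 (95% interval 0.36 to 0.95, edgeR adjusted p = 0.0135), a 1.57-fold rise. The call was lost without knockdown replicate 2 (0.56, adjusted p = 0.087).

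SMAD7 (ENSG00000101665, chr18:48919853-48950965, minus strand), which blocks the receptors and is itself induced by the pathway, was at 19.4 and 24.04 CPM in control and at 24.2 and 30.1 CPM after knockdown. A narrow gap between the higher control and the lower knockdown library separated the groups. The log2 fold change was 0.32, with an interval of -0.04 to 0.67 and an edgeR adjusted p of 0.239.

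**Figure D3:**
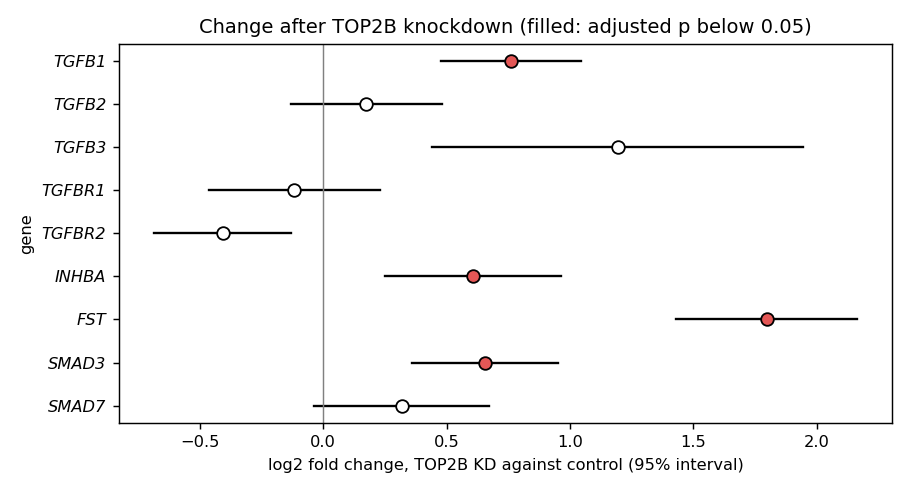
Log2 fold change of the 9 genes, TOP2B knockdown against control, with 95% intervals from the edgeR fit (n = 2 libraries per group). FST (1.80), TGFB1 (0.76), SMAD3 (0.65) and INHBA (0.61) were called higher, and the interval of TGFBR2 (-0.69 to -0.13) lies below 0 although its adjusted p was 0.0662.

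The replicates differed in the same way in both conditions for several of the 9 genes. Replicate 1 was higher than replicate 2 in control and after knockdown for TGFB1, TGFB2, TGFBR1, TGFBR2, INHBA and FST, and lower in both for SMAD3 and SMAD7. The labels give no batch or date for the replicate numbers.

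The order of the levels per kb of exon changed at its top. In control, INHBA was first at 45.4 ± 5.86 CPM per kb (SD, n = 2), followed by TGFB1 at 34.8 ± 3.26 and TGFBR2 at 29.5 ± 2.00. FST was the fourth at 24.4 ± 4.44, a range that overlapped with that of TGFB2 at 20.1 ± 2.53. SMAD3 (17.2 ± 0.380), TGFBR1 (7.65 ± 1.24), SMAD7 (5.51 ± 0.828) and TGFB3 (0.172 ± 0.0288) followed. After TOP2B knockdown, FST was first at 84.6 ± 12.6 CPM per kb, ahead of INHBA at 69.2 ± 9.17 and TGFB1 at 59.0 ± 0.587. The lowest FST library (75.77) was barely above the highest INHBA library (75.67), so the order of FST and INHBA is not firm. With the canonical transcript alone, their means after knockdown were 101.3 and 94.8 CPM per kb. SMAD3 was the fourth at 27.0 ± 2.63. The ranges of TGFB2 (22.7 ± 2.27) and TGFBR2 (22.2 ± 0.157) overlapped, as did those of TGFBR1 (7.05 ± 1.17) and SMAD7 (6.87 ± 1.06), so neither pair can be ordered on this scale. TGFB3 remained last at 0.395 ± 0.0990 CPM per kb. Parts of this order depended on the exon length used. With the canonical transcript alone, TGFBR2 (44.5 CPM per kb) stood above TGFB1 (40.8) and SMAD3 (26.6) above TGFB2 (20.7) in control, and TGFBR2 (33.6) stood above TGFB2 (23.4) after knockdown.

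The rest of the pathway was described from 8 lists, also chosen with earlier results of these data known. They held 99 further genes, of which 83 were tested. Of these, 10 were called higher (12.05%, against 6.66% of all genes tested) and 6 lower (7.23%, against 4.18%). Their median log2 fold change was 0.08, with 42 positive and 41 negative values, beside the 0.61 of the 9 genes.

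Among 14 genes of latency, processing and activation of TGF-beta, 4 rose (28.6%, against 6.66% of all genes tested) and 1 fell (7.14%, against 4.18%). Their median log2 fold change was 0.38. THBS1, a matrix protein that can release active TGF-beta from its latent complex, rose from 652 and 523 CPM in control to 2258 and 2480 CPM after knockdown. This was a log2 fold change of 2.01 (95% interval 1.61 to 2.41, edgeR adjusted p = 0.00048) and larger than that of any of the 9 genes. LTBP4, a latent TGF-beta binding protein, rose from 53.6 and 47.1 CPM to 115.1 and 101.01 CPM (1.10, adjusted p = 0.00134). FURIN, the protease that cuts the TGF-beta and activin precursors, rose from 145.0 and 119.7 to 244.1 and 233.2 CPM (0.85, adjusted p = 0.00505). LTBP2, a relative of LTBP4 that does not bind TGF-beta, rose by 0.59 (adjusted p = 0.0215). The LTBP2 call was lost without control replicate 2 (adjusted p = 0.0967) and without knockdown replicate 2 (0.0874).

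The other latent TGF-beta binding proteins, named after their values were seen to complete the family, were not called by edgeR. LTBP1 had a log2 fold change of 0.43 (adjusted p = 0.116) and LTBP3 of 0.51 (adjusted p = 0.0558). DESeq2 called LTBP3 higher. LRRC32, also called GARP, which holds latent TGF-beta on the cell surface, fell from 38 and 30 counts to 4 and 4 counts. Its log2 fold change was -2.87 (95% interval -3.88 to -1.86, edgeR adjusted p = 0.00438), at a level under 2 CPM in each library. LRRC32 passed the filter on low counts only through its control libraries. It was therefore not tested in the fits without a control library, nor at a mean of 100 counts. DESeq2 gave it no adjusted p. The most abundant genes of the list that were not called were MMP14 (0.16, adjusted p = 0.67) and the integrin subunit ITGB5 (0.34, adjusted p = 0.225).

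Extracellular inhibitors and matrix genes that hold back the ligands moved in both directions. Of 5 tested, 1 was called higher and 1 lower (20% each, against 6.66% and 4.18% of all genes tested). FBN2, a microfibril protein, rose from 106.3 and 104.7 to 242.8 and 189.7 CPM (log2 fold change 1.04, edgeR adjusted p = 0.00264). BGN, the proteoglycan biglycan, fell from 10.2 and 7.72 to 4.53 and 2.88 CPM (-1.27, adjusted p = 0.0111). FSTL3, the follistatin relative that also binds activin, had a log2 fold change of -0.17 with an interval of -0.45 to 0.12 (adjusted p = 0.448). FBN1, the most abundant of the list, was at 0.08 (adjusted p = 0.806).

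Of the other receptors, 1 of 8 tested was called, and it was lower (12.5%, against 4.18% of all genes tested). ACVR1C, also known as ALK7, a type I receptor for activin B and nodal, fell from 4.72 and 4.04 to 2.08 and 2.13 CPM (log2 fold change -1.06, edgeR adjusted p = 0.0196). Without control replicate 1 its adjusted p was 0.0561. ACVR1B, the type I receptor through which activin A signals, was at 51.0 and 40.4 CPM in control and 48.9 and 39.2 CPM after knockdown, overlapping ranges with a log2 fold change of -0.05 (95% interval -0.40 to 0.29). CD109, a co-receptor that restrains TGF-beta, was at 0.34 (adjusted p = 0.172).

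Other ligands and SMAD partners gave no call. In the ligand list 2 of 12 genes were tested, GDF11 (0.20, edgeR adjusted p = 0.338) and the inhibin subunit INHA (-0.35, adjusted p = 0.544). By edgeR 0 of these were called, with 0 at an unadjusted p below 0.05 and 0 by DESeq2.  Of all genes tested, edgeR called 6.66% higher and 4.18% lower. Of 7 SMADs and partners, edgeR and DESeq2 called 0, with 1 at an unadjusted p below 0.05 in edgeR, a count not made over all genes. Lists of 2 and 7 tested genes are too small for 0 calls to be told apart from the shares over all genes. The coactivator CREBBP was at 0.26 (adjusted p = 0.29) and SP1 at 0.32 (adjusted p = 0.106). Of 17 genes of intracellular inhibition and turnover, 1 was called higher (5.88%, against 6.66% of all genes tested). SMURF1, a ubiquitin ligase that turns over SMADs and the TGF-beta receptor, went from 62.1 and 51.1 to 81.8 and 78.4 CPM (0.50, adjusted p = 0.0374). The SMURF1 call was lost without control replicate 2 (adjusted p = 0.29) and without knockdown replicate 1 (0.101). The ligase NEDD4L (0.20) and the receptor-binding FKBP1A (-0.11) were not called.

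**Figure D4:**
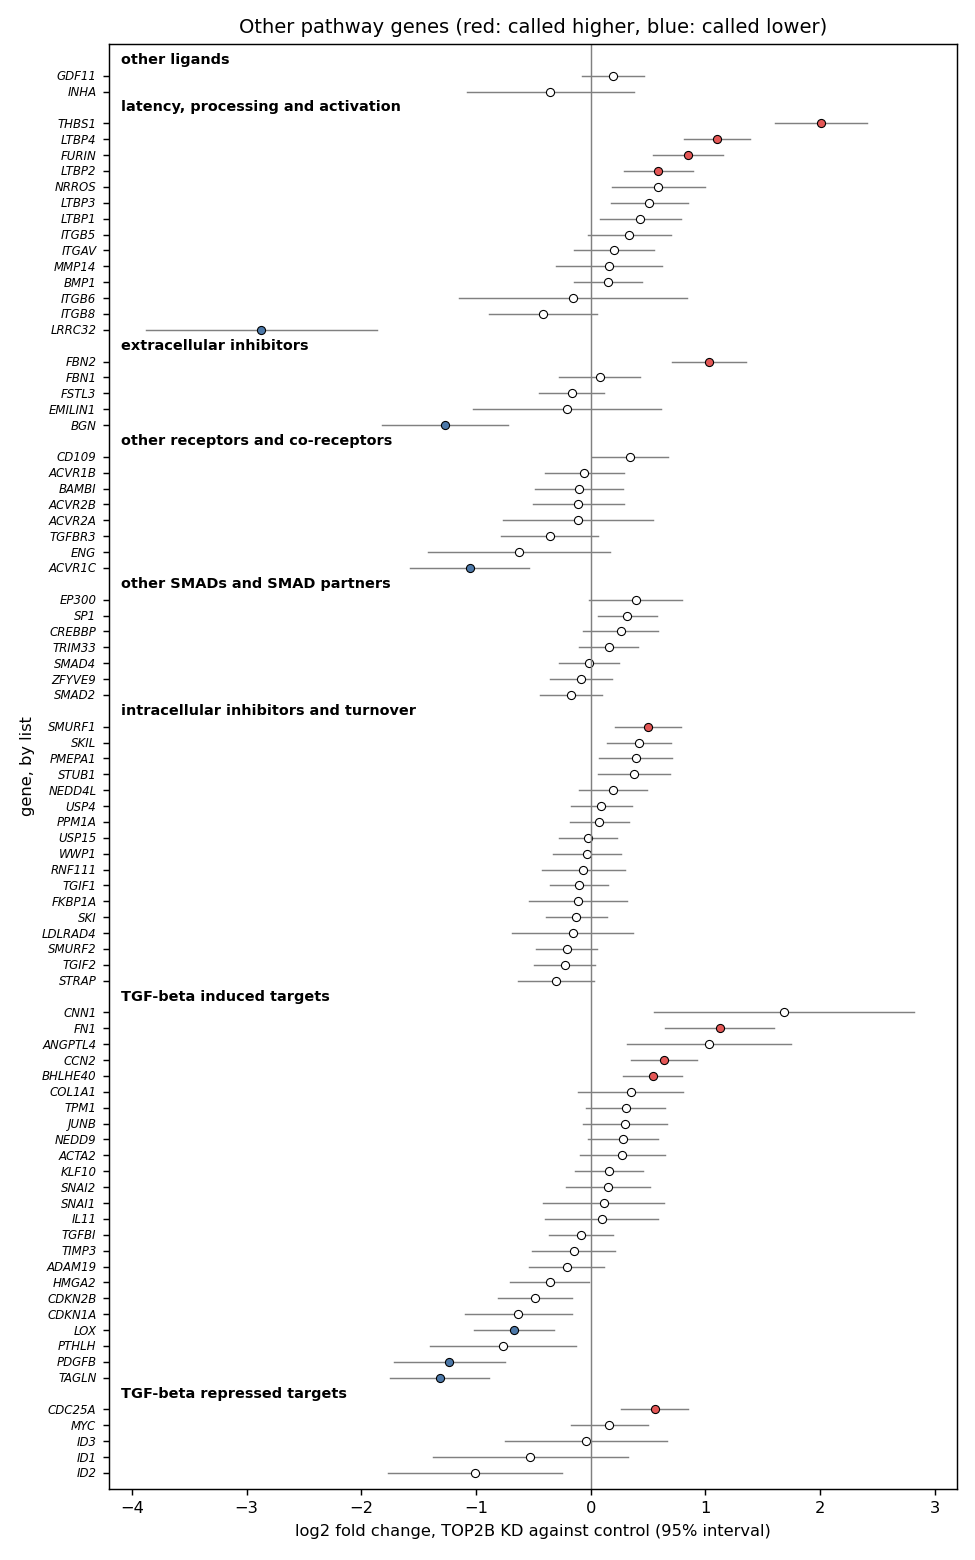
Log2 fold change of 82 of the 83 tested genes of the 8 other pathway lists, TOP2B knockdown against control, grouped by list, with called genes marked. THBS1 (2.01) and LRRC32 (-2.87) lie farthest from 0, and the TGF-beta induced targets hold 3 higher and 3 lower calls. LRRC32 passed the filter on low counts only through its control libraries.

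Genes that TGF-beta induces in many cell types were called in both directions. Of 25 tested, 3 rose and 3 fell (12% each, against 6.66% and 4.18% of all genes tested). Their median log2 fold change was 0.11. FN1, the matrix protein fibronectin, rose from 1915 and 1433 to 4166 and 3146 CPM (1.13, edgeR adjusted p = 0.0103). CCN2, also called CTGF, a secreted matrix factor, rose from 188.2 and 183.3 to 278.1 and 301.0 CPM (0.64, adjusted p = 0.0128). BHLHE40, a transcriptional repressor, rose by 0.54 (adjusted p = 0.0168). These calls depended on single libraries. The adjusted p was 0.0729 for FN1 without knockdown replicate 1, 0.0768 for BHLHE40 without control replicate 1, and for CCN2 0.0689 without control replicate 2 and 0.0707 without knockdown replicate 2.

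The 3 targets called lower by edgeR were TAGLN, PDGFB and LOX, and DESeq2 called 4 lower, these and CDKN1A. TAGLN, a smooth muscle actin-binding protein, fell from 8.06 and 9.56 to 3.49 and 3.57 CPM (-1.32, adjusted p = 0.0032), with 47.8% of its exon bases shared with other genes. PDGFB, a growth factor subunit, fell from 5.64 and 5.18 to 2.22 and 2.38 CPM (-1.23, adjusted p = 0.00741). LOX, which crosslinks collagen, fell from 868 and 726 to 529 and 473 CPM (-0.67, adjusted p = 0.0244). The LOX adjusted p was 0.157 without control replicate 1, 0.0856 without knockdown replicate 1 and 0.205 without knockdown replicate 2. CDKN1A, the cell cycle inhibitor p21, named after its values were seen, was at 465 and 664 CPM in control and at 303 and 425 CPM after knockdown. Its log2 fold change was -0.63 (95% interval -1.10 to -0.16, edgeR adjusted p = 0.0863).

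Among the induced targets that were not called, TPM1, a tropomyosin of stress fibres, was at 759 and 815 CPM in control and at 911 and 1034 CPM after knockdown. The groups were separate, and the log2 fold change was 0.31 (95% interval -0.04 to 0.65, edgeR adjusted p = 0.242). Of 5 genes the pathway represses, 1 was called higher after knockdown (20%, against 6.66% of all genes tested). This was CDC25A, a phosphatase that drives cell cycle entry (0.56, edgeR adjusted p = 0.0241). It lost the call without control replicate 1 and without knockdown replicate 1 (adjusted p = 0.108 in each). MYC (0.16, adjusted p = 0.531) and ID3 (-0.04, adjusted p = 0.956) were not called.

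The 3′ UTRs of the 9 genes were searched for the word GCAACC, which earlier work on these same counts had picked out, so that its presence supports nothing here. It was found in 1 of the 9, INHBA, as a single copy 755 bases into a 3′ UTR of 4536 bases. Of 12517 tested genes with a 3′ UTR, 23.4% hold the word. The INHBA site is shown with the word in capitals.
INHBA, 3′ UTR site: tagaactatGCAACCtaataggtt
FST, TGFB1 and SMAD3, the other genes that rose, lack it. Among the pathway genes called higher, THBS1 and FBN2 hold 1 copy each and SMURF1 holds 2.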

How the data were processed

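Poly(A) RNA of 2 control and 2 TOP2B knockdown samples was sequenced as single-end 65-bp reads. The authors checked the reads with FastQC 0.11.6, aligned them to GRCh38 with STAR 2.5.4a and deposited raw counts per Gencode v24 gene, without normalization. The 4 columns that repeat these libraries under the same names with identical values were not used. A tag in the column headings reads stranded and paired-end, whereas the methods give single-end reads. The strand setting is not given in the sources used here.

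The 15356 genes that reached 10 counts in 2 or more libraries were fitted together with edgeR 4.0.16 under R 4.3.3 (glmQLFit and glmQLFTest). TMM scaling was used, condition was the single term, and p-values were adjusted by Benjamini-Hochberg over all 15356. The common dispersion was 0.0117. Error from counting and between these samples is all that the 95% intervals cover. A level of 1 CPM rests on 20.2 to 23.9 reads. No molecular identifiers are described, so counts are not independent molecules. Positions, exon lengths (exons of all transcripts merged) and 3′ UTRs of canonical transcripts came from GENCODE v44 on GRCh38, which held 98.9% of the tested genes, and promoters from RefSeq on GRCh38.p14, with 9 of 9 genes matched by symbol.

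The members and lists were chosen with earlier results of these data known. The genes named were the 9 members, every called gene of the lists, at most 2 uncalled genes of highest mean CPM per list, and TOP2B. Values of some genes that this rule or the lists hold are not reported here. The alternatives were DESeq2 1.42.0 (its size factors in edgeR, and its Wald test), library size alone, no filter, a mean of at least 100 counts, the replicate number as a second term, and fits without each library. The scripts were tested on simulated data.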

Additional observations from a re-analysis of the deposited data

How the results depend on the processing

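TGFB1 and FST were called higher in all 10 alternative fits. The replicate block, with the replicate number as a second term, gave adjusted p-values of 0.00676 for TGFB2 (log2 fold change 0.18), 0.00385 for TGFB3 (1.19), 1.05e-05 for TGFBR2 (-0.41) and 0.00325 for SMAD7 (0.32), all under the threshold. It called 7 of the 9 genes higher and 1 lower, 33 and 23 of the other pathway genes, and 3440 and 3346 of all genes tested. The replicates share only a number, and their differences in control and in knockdown had Pearson r = 0.479 across 15356 genes, which are not independent.

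Without a filter, TGFB3 passed (1.19, adjusted p = 0.0051), 11 of the other pathway genes were called lower and 985 of all genes were. The DESeq2 Wald test called TGFBR2 lower (-0.42, adjusted p = 0.0228), 1 of the 9 genes, beside 645 of all genes. Under the filter at a mean of 100 counts, INHBA missed the threshold (0.61, adjusted p = 0.0534) and TGFB3 was not tested. There 3 other pathway genes were called lower, beside 447 of all genes. For these settings the cause was not tested.

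In fits without each library in turn, where the lone library of a group is assumed to vary like the other group, log2 fold changes ran from 0.92 to 1.44 for TGFB3, -0.29 to 0.058 for TGFBR1, 0.47 to 0.74 for INHBA and 0.56 to 0.75 for SMAD3. TGFBR1 took the opposite sign without control replicate 1 (0.058) and without knockdown replicate 2 (0.051). Of the called genes of the other lists, 14 fits of this kind ended a call and 0 reversed it. Without a library, the difference in the TGFB1 share ran from 7.46 to 9.86 percentage points and that in the log2 INHBA to FST ratio from -1.25 to -1.14, as values with no test. The TGFB3 values rest on 18 to 49 counts per library.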
